A study of Homo sapiens with 16 samples.

Results

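The 6 genes described here encode the interleukin-7 receptor and the signalling proteins that it uses: the receptor chains IL7R and IL2RG, the kinases JAK1 and JAK3, and the transcription factors STAT5A and STAT5B. They were taken by symbol from the array annotation, each through the probe set with the highest mean among those naming only that gene. All 6 were found, out of 19775 genes on the array, and all 6 passed the filter on low values, which kept 13310 genes. Total RNA came from 16 lines grown from human T-cell acute lymphoblastic leukaemia (T-ALL): ALL-SIL, CCRF-CEM, DU528, HSB-2, JURKAT, KOPT-K1, LOUCY, MOLT-16, MOLT-4, P12-ICHIKAWA, PEER, PF-382, SKW-3, SUP-T11, SUP-T13 and TALL-1. Each line was cultured in 10 ml of RPMI-1640 with 10% serum, without treatment, and harvested after 24 hours. Each was measured on 1 Affymetrix U133 Plus 2.0 array, so a level has no replicate error and a line is a single culture as far as the labels say.

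In developing thymocytes, interleukin-7 binds the IL7R chain, which pairs with the common gamma chain encoded by IL2RG. JAK1 is bound to IL7R and JAK3 to the common gamma chain, and the kinases phosphorylate STAT5, which enters the nucleus and switches on genes for survival and growth. The pathway is known for activating mutations of its receptor and kinases in T-ALL. The same gamma chain serves the receptors for interleukins 2, 4, 9, 15 and 21. Array values report RNA only, and whether the proteins were present or phosphorylated was not measured.

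Levels are deposited probe set intensities on a linear scale; differences and SDs are on the scale of log2(intensity + 16). The median of the whole table, 42.4, marks a low level. The array medians ran from 37.6 in MOLT-16 to 45.0 in LOUCY, and the ACTB ratio (3' over 5' probe set), a measure of RNA integrity, from 1.44 to 2.03. The same ratio for GAPDH ran only from 0.90 to 1.05 and was not compared with the levels. The 12 poly-A spike probe sets, taken here to carry equal amounts on each array, had a median SD of 0.23. Neighbouring lines in an order of levels are called apart where their gap exceeds 0.65 log2 units (1.57-fold), a yardstick set from these spikes that leaves out differences between cultures. Fold gaps between neighbours are on this log2 scale, with 16 added. Of 8 T-lineage markers, 5 exceeded 4 times the table median in every line and 8 in some line, against 1 of 4 B-lineage, 1 of 4 myeloid, 0 of 3 natural killer and 1 of 5 stromal markers in some line. Of the T-lineage markers, CD2, CD5 and CD3G were lowest in DU528, at 11.1, 9.5 and 667. CD3D, CD3E, CD247 and LCK were lowest in MOLT-16, at 7095, 31.2, 589 and 942, and CD7 in PF-382 at 208. Among all genes tested, MOLT-16 had the lowest value of 11.2% and SUP-T11 of 13.2%.

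The 6 genes varied widely between lines. Their SDs over the 16 lines ran from 0.73 for STAT5B to 2.03 for IL7R with a median of 1.01, beside a median of 0.41 over all 13310 genes tested. IL7R and STAT5A had the widest spread: 480 tested genes (3.61%) varied more than IL7R and 521 (3.91%) more than STAT5A. IL2RG, JAK1, JAK3 and STAT5B stood above the table median in all 16 lines, whereas IL7R and STAT5A did so in 14 each. No line was high for every gene. DU528 and LOUCY were each among the 4 highest lines for the same 4 genes, IL2RG, JAK1, STAT5A and STAT5B. SUP-T11 was among the 4 lowest for 5 genes and among the 4 highest for JAK1, and JURKAT was among the 4 lowest for JAK1, JAK3, STAT5A and STAT5B.

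**Figure D1:**
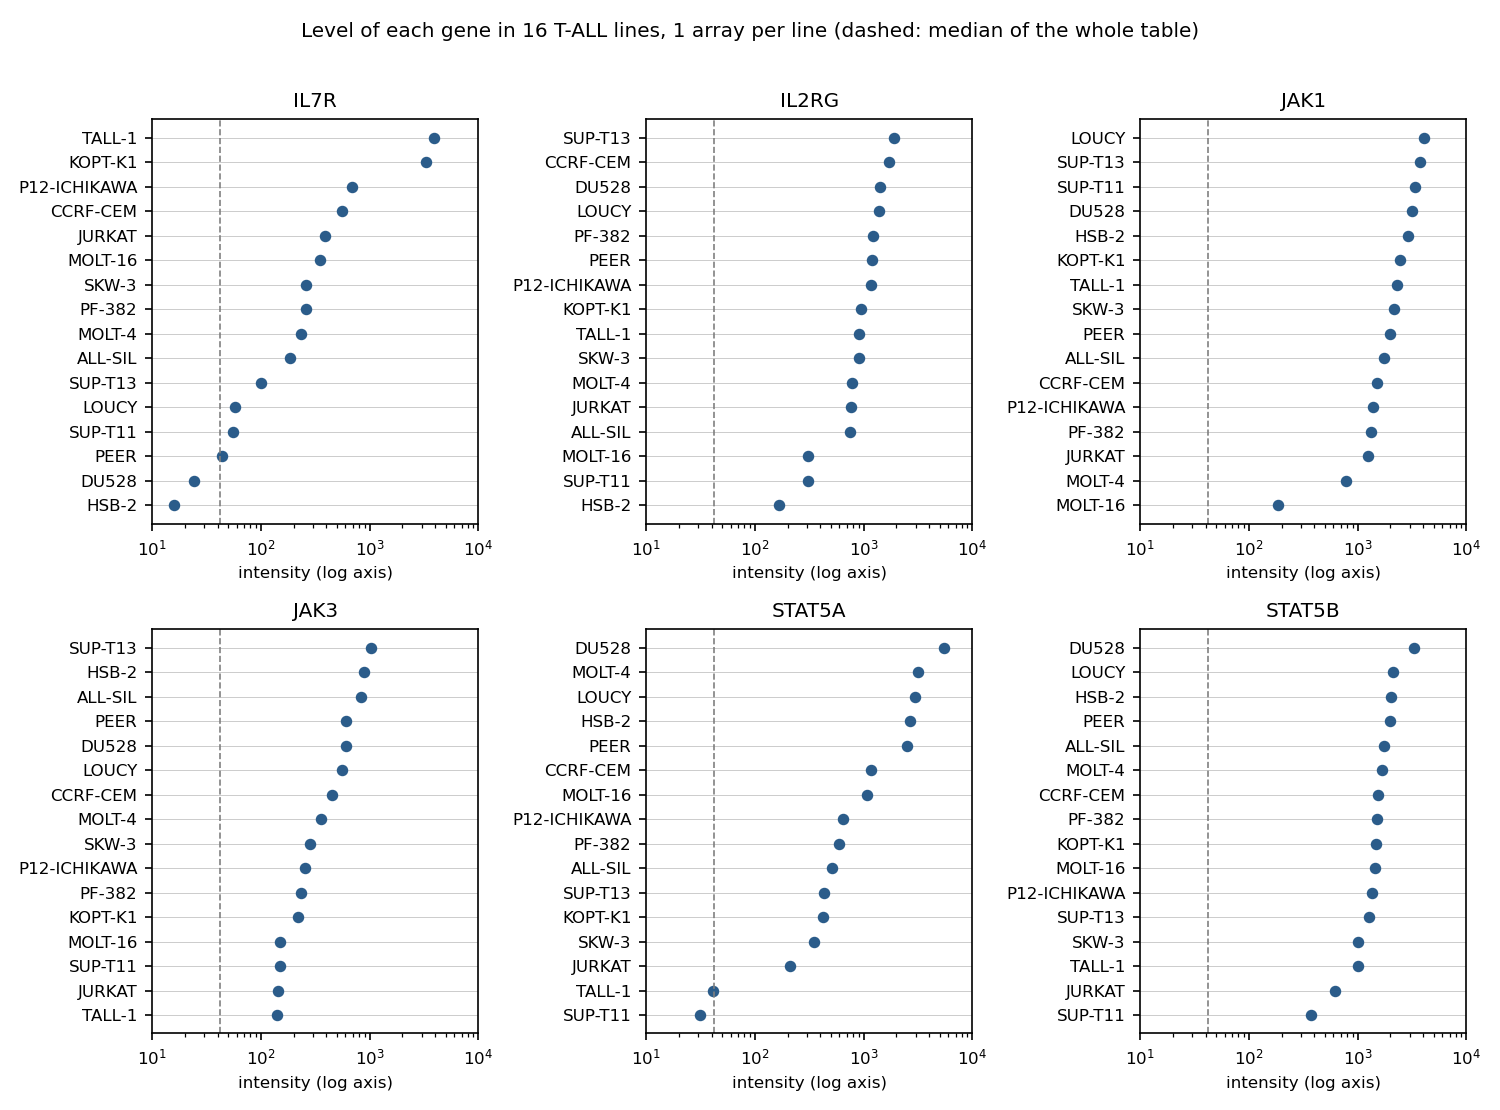
Level of the 6 genes in the 16 T-ALL lines, as deposited intensity on a log axis, with 1 point per line and the lines ordered by level within each panel; the dashed line is the median of the whole table, 42.4. IL7R ran from 15.9 to 3879 and STAT5A from 31.6 to 5431, while MOLT-16 stood alone below the other lines for JAK1 at 186.

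IL7R, the chain that binds interleukin-7, was at 3879 in TALL-1 and 3303 in KOPT-K1. These levels differed by less than the yardstick, and the next line was 4.73-fold lower. P12-ICHIKAWA was at 685, CCRF-CEM at 557, JURKAT at 391 and MOLT-16 at 350.3. SKW-3 was at 262, PF-382 at 261, MOLT-4 at 232 and ALL-SIL at 186. No neighbours among these 8 lines were told apart. SUP-T13 followed at 100, and LOUCY at 57.7, SUP-T11 at 55.2 and PEER at 43.5 lay near the table median. DU528 at 24.4 and HSB-2 at 15.9 were below it. Of the 15 gaps in the order, 3 exceeded the yardstick: below KOPT-K1, below ALL-SIL and below SUP-T13. A second IL7R probe set gave nearly the same order (Pearson r = 0.98, Spearman rho = 0.92, n = 16 lines), with the same line highest and DU528 lowest at 18.5.

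The sequence around the IL7R start is shown because the gene had the widest range of the 6 and factors of the ETS and RUNX families are known to act on it. The window reaches from 250 bases before to 50 bases after the start (RefSeq, GRCh38.p14, chr5:35856641-35856940, plus strand), and capitals mark matches to GGAAGT, an ETS element, and TGTGGT, a RUNX element, on either strand.
IL7R: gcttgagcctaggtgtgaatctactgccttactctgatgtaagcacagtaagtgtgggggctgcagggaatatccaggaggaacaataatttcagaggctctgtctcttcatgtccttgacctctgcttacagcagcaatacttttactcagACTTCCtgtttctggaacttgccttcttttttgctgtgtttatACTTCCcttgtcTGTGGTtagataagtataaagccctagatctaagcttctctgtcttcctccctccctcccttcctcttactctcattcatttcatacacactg
The window held 2 ETS matches, here on the opposite strand, starting 98 and 55 bases before the start, and 1 RUNX match starting 43 bases before it. Of 35116 windows of this length in the table, 22.8% held an ETS match and 3.89% held 2 or more. A RUNX match was in 13.1%. TGGGAA, the element of the NOTCH partner RBPJ, had no match in the IL7R window and was in 24.0% of all windows. The letters are the same reference in every line and say nothing of a difference between lines.

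IL2RG, the common gamma chain, fell into 2 sets of lines. The highest were SUP-T13 at 1895, CCRF-CEM at 1719, DU528 at 1423 and LOUCY at 1399. PF-382 was at 1216, PEER at 1193, P12-ICHIKAWA at 1164, KOPT-K1 at 955, TALL-1 at 902 and SKW-3 at 900.3. MOLT-4 was at 782, JURKAT at 759 and ALL-SIL at 757. Neighbours among these 13 lines could not be told apart. A gap of 1.26 log2 units, 37.3% of the whole range, separated them from MOLT-16 at 307, SUP-T11 at 305 and HSB-2 at 167. HSB-2 was also told apart from SUP-T11. HSB-2 thus had the lowest reading for both receptor chains. Because of this split, every relation with IL2RG below is over the 13 upper lines.

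JAK1, the kinase bound to IL7R, was high in most lines. LOUCY was at 4079, SUP-T13 at 3726, SUP-T11 at 3362, DU528 at 3135 and HSB-2 at 2884. KOPT-K1 was at 2442, TALL-1 at 2309, SKW-3 at 2181 and PEER at 2005. ALL-SIL was at 1749.8, CCRF-CEM at 1499, P12-ICHIKAWA at 1393, PF-382 at 1320.0 and JURKAT at 1233. No step down this series exceeded the yardstick, nor did the step to MOLT-4 at 785. MOLT-16 stood apart at 186, 3.96-fold below MOLT-4, and this gap took up 45.8% of the whole range. MOLT-16 also had the lowest array median, and over the 16 lines JAK1 had r = 0.64 with the array median and -0.74 with the log2 ACTB ratio. The part of array quality in the order of JAK1 was not tested. MOLT-16 was also lowest after quantile normalization, after centring each array on its median and with the mean of all probe sets. LOUCY stayed highest after quantile normalization and after centring, and SUP-T11 was highest with the mean of all probe sets. Other offsets could not change the order, and the other choices of probe set kept the same JAK1 probe set.

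JAK3, the kinase bound to the common gamma chain, changed gradually from line to line, and 0 of its 15 gaps exceeded the yardstick. SUP-T13 was at 1031, HSB-2 at 881, ALL-SIL at 832, PEER at 608, DU528 at 602 and LOUCY at 554. CCRF-CEM was at 453, MOLT-4 at 355, SKW-3 at 286, P12-ICHIKAWA at 256, PF-382 at 234 and KOPT-K1 at 219. MOLT-16 at 151, SUP-T11 at 149, JURKAT at 142 and TALL-1 at 139.7 were lowest. The highest line exceeded the lowest 7.38-fold in intensity. JAK3 had r = -0.65 with the log2 ACTB ratio, the 3'-to-5' measure above, and 0.13 with the array median. The part of RNA integrity in this order was not tested.

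The probe sets of the kinases behaved differently. For JAK1, 2 other probe sets followed the one used with r = 0.99 each and were lowest in MOLT-16, at 34.1 and 201. The last 2 were dimmer: the first had r = 0.79, and the other exceeded the table median in 1 line. For JAK3, the probe set used was the only one with a wide spread. Another ran only from 155 to 249.9 with r = -0.03 to the one used, and the other two, at most 25.5 and 15.2, were below the table median in all 16 lines. The JAK3 order therefore rests on 1 probe set, and with the mean of all 4 the highest line was HSB-2 and the lowest SUP-T11.

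**Figure D2:**
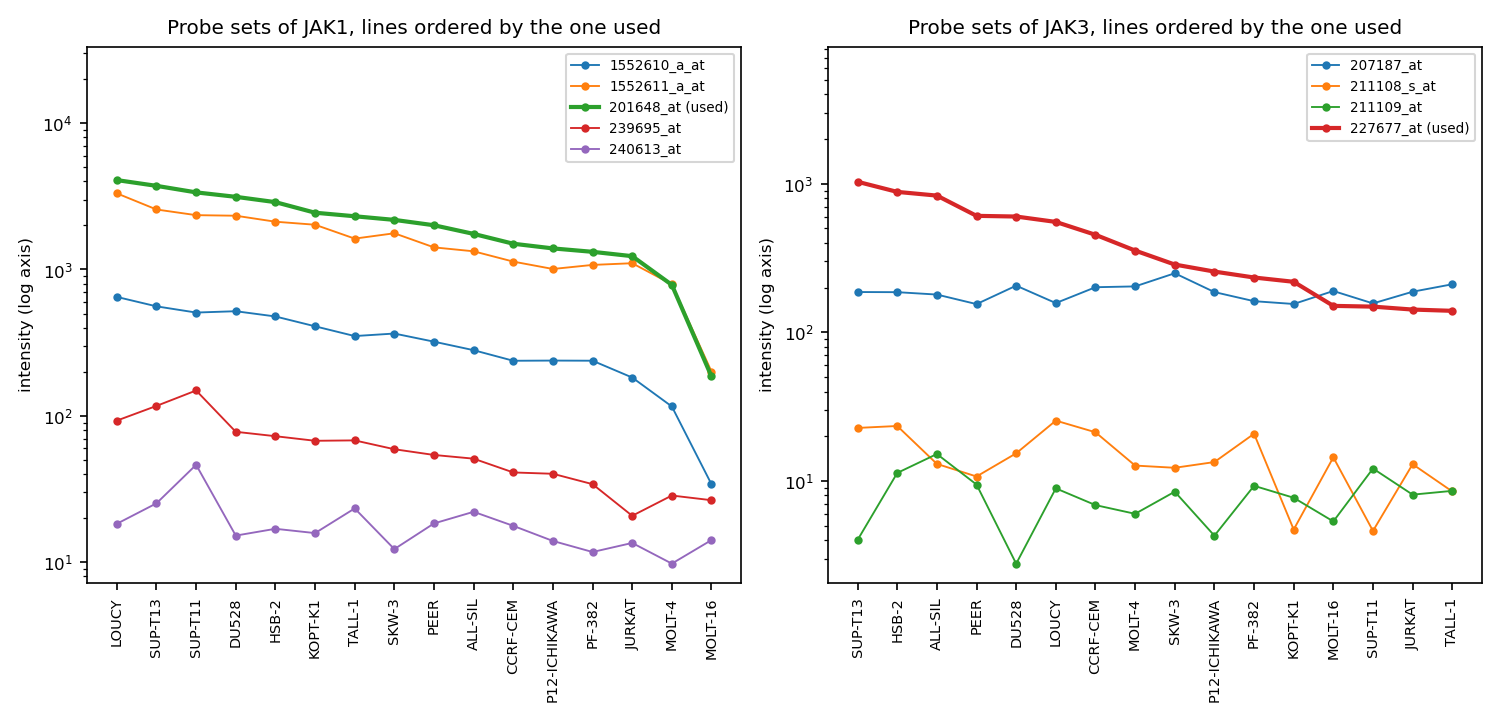
Intensity on a log axis of each probe set naming only JAK1 (left, 5 probe sets) or JAK3 (right, 4 probe sets) in the 16 lines, ordered by the probe set used, drawn thick. For JAK1, 3 probe sets fall together to MOLT-16; for JAK3, the thick line falls from 1031 to 139.7 while another probe set stays between 155 and 249.9.

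STAT5A, 1 of the paralogous transcription factors below the receptor, had the second widest spread. DU528 was highest at 5431, 1.70-fold above MOLT-4 at 3194. LOUCY was at 2954, HSB-2 at 2655 and PEER at 2483, and a gap of 2.13-fold separated these lines from CCRF-CEM at 1158. MOLT-16 was at 1076, P12-ICHIKAWA at 651, PF-382 at 598 and ALL-SIL at 514. SUP-T13 was at 429, KOPT-K1 at 427, SKW-3 at 354 and JURKAT at 209.9. TALL-1 at 41.7 was a further 3.92-fold lower, and SUP-T11 was at 31.6; both were below the table median. Of the 15 gaps, 5 exceeded the yardstick. TALL-1, with the highest IL7R, thus read STAT5A at the level of the table median. STAT5A rests on 1 probe set.

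STAT5B ran over a narrower range, 8.92-fold in intensity, and was never low. DU528 was at 3310.4, LOUCY at 2130.2, HSB-2 at 2030.5, PEER at 1978, ALL-SIL at 1749 and MOLT-4 at 1660.3. CCRF-CEM was at 1543, PF-382 at 1505, KOPT-K1 at 1466, MOLT-16 at 1444, P12-ICHIKAWA at 1347 and SUP-T13 at 1285. SKW-3 at 1011 and TALL-1 at 1004 were lower, and JURKAT at 615 and SUP-T11 at 371 were each told apart from the line above. The other 4 STAT5B probe sets had r from 0.72 to 0.99 with the one used; DU528 was highest in all 5, SUP-T11 lowest in 3 and MOLT-16 lowest in 2.

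STAT5A and STAT5B lie head to head on chromosome 17 in RefSeq (GRCh38.p14), with their nearest starts 11048 bases apart, and their start windows are shown because the genes moved together. For STAT5A, which has 3 start windows in the table, the one holding a match to the RBPJ element TGGGAA is given (chr17:42287297-42287596, plus strand). The match is in capitals, 37 bases before the start, and 24.0% of all windows held this element. The other STAT5A windows and the STAT5B window (chr17:42276342-42276641, minus strand) held no match to the ETS, RUNX or RBPJ elements or to TTCNNNGAA. TTCNNNGAA is the element that STAT5 binds.
STAT5A: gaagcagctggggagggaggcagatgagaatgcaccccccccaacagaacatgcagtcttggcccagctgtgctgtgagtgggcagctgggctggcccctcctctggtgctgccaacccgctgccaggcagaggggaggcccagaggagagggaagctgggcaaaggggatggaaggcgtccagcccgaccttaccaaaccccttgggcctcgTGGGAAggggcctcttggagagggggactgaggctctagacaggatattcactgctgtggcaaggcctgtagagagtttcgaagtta
STAT5B: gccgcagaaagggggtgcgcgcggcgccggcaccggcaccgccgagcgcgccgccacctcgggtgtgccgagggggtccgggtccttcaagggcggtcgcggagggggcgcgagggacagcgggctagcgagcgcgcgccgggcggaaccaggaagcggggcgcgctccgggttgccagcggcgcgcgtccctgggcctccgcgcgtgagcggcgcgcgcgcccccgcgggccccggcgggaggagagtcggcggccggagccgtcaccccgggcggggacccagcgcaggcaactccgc
The STAT5B window was 82.0% G and C and the STAT5A window 62.3%.

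To ask which genes follow each other across lines, every tested gene was regressed on the log2 level of each of the 6 with limma, with Benjamini-Hochberg adjustment over 13309 genes. A gene was called at an adjusted p below 0.05. The points of each relation share their array, and lines are the only replicates. Of the 15 pairs among the 6 genes, 1 was called in both directions of the fit: STAT5A with STAT5B (r = 0.87, rho = 0.89, n = 16). STAT5B rose by 0.32 (SE 0.05) log2 units per log2 unit of STAT5A, with a limma adjusted p of 0.0231 in the fit on STAT5A and 0.0241 in the fit on STAT5B. Of all genes tested, 0.0376% were called on STAT5A and 0.12% on STAT5B. The median r over the 15 pairs was 0.35, 9 were positive, and 9 were below 0.5 in size.

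Whether the pair was called depended on single lines, at the ends of the range and elsewhere. Without SUP-T11 the limma adjusted p was 0.279 on STAT5A and 0.190 on STAT5B, and without DU528 it was 0.104 and 0.0621, while r stayed between 0.82 and 0.92 whichever line was left out. The call on STAT5A was also lost without LOUCY (0.0679) or PEER (0.0606). Without SUP-T11 and TALL-1, the lines farthest from the STAT5A median, r was 0.85 with a limma adjusted p of 0.269, and without SUP-T11 and JURKAT, those farthest for STAT5B, 0.85 and 0.117. STAT5A and STAT5B are similar in sequence, and hybridisation of one transcript to the other's probes was not tested.

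STAT3, a related transcription factor that lies next to STAT5A on chromosome 17, moved with both. It was at 4470.1 in DU528, 2914 in HSB-2, 1740.0 in LOUCY, 1721 in PEER, 1645 in SUP-T13 and 1547 in MOLT-4. PF-382 was at 1370.4, KOPT-K1 at 1312, MOLT-16 at 1256, P12-ICHIKAWA at 1241 and SKW-3 at 1039. ALL-SIL was at 988, CCRF-CEM at 943, JURKAT at 766, TALL-1 at 513 and SUP-T11 at 406. DU528 was thus highest and SUP-T11 lowest for all 3 STAT genes. STAT3 had r = 0.88 with STAT5A (limma adjusted p = 0.0167) and r = 0.86 with STAT5B (0.0241), the only list gene called on either. Without SUP-T11 the adjusted p values were 0.249 and 0.196, and without DU528 0.0631 and 0.0812. The call on STAT5A was also lost without TALL-1 (0.0590) or PEER (0.0502). With ranks of the STAT5 gene the adjusted p values were 0.0885 and 0.149, and without the 2 lines farthest from its median 0.522 and 0.117.

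**Figure D3:**
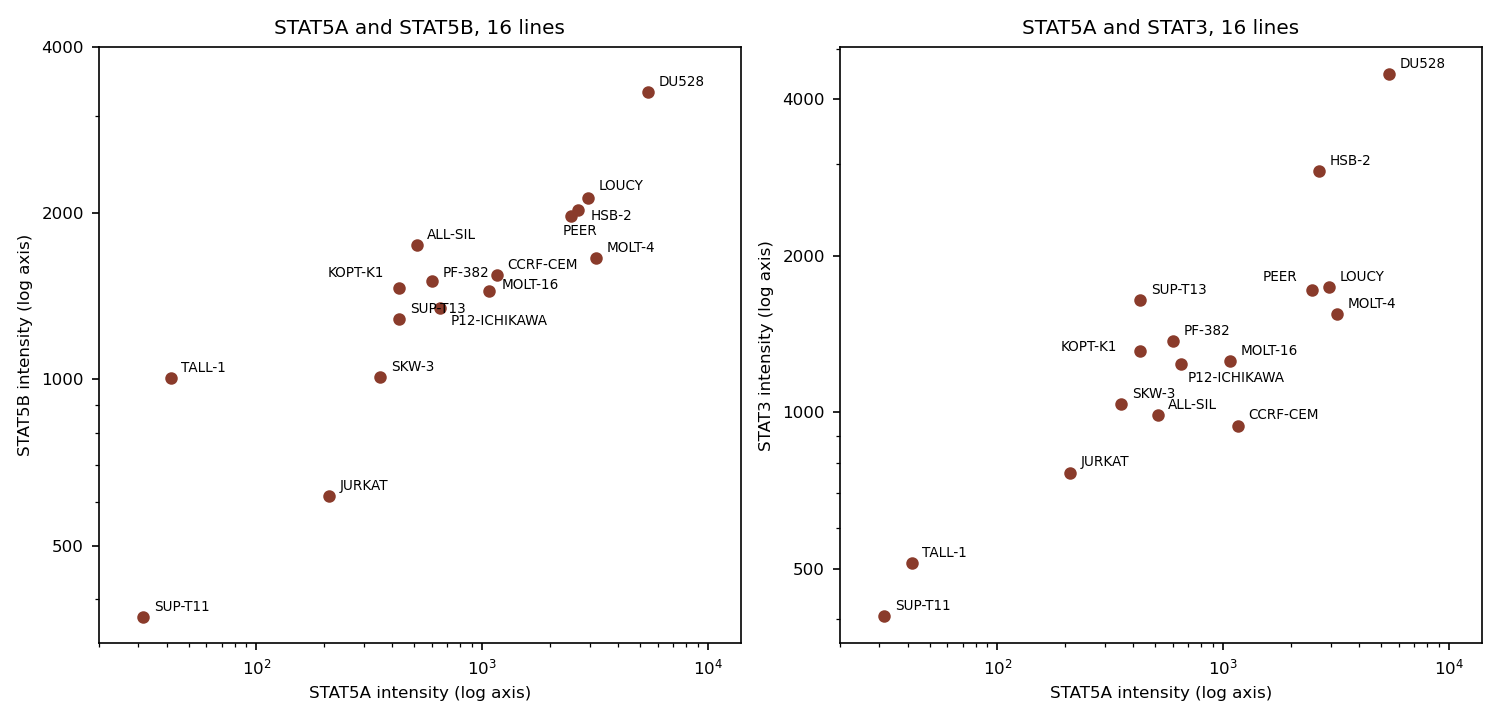
STAT5A against STAT5B (left) and STAT3 (right), as deposited intensities on log axes, with 1 point for each of the 16 lines. SUP-T11 lies at the lower left and DU528 at the upper right of both panels; r is 0.87 and 0.88 on the log2 scale.

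The genes nearest to the 6 in chromosome order were then compared. Over the 10 tested genes on either side, the median r was 0.44 for STAT5A (from -0.02 to 0.88) and 0.38 for STAT5B (from -0.12 to 0.87). It was -0.004 for IL7R, 0.02 for IL2RG, 0.08 for JAK1 and 0.03 for JAK3. Against this stood a median r of 0.03 over all genes tested for STAT5A and also for STAT5B, and over all tested genes of chromosome 17 of 0.16 and 0.19. The STAT5A and STAT5B sets share most of their genes and each holds the other STAT5 gene. Their medians are therefore not separate observations. Only STAT3 and the partner STAT gene were called among the neighbours of any of the 6 genes. Next after them were DHX58, a cytosolic RNA sensor protein, with r = 0.81 to STAT5A (limma adjusted p = 0.0981), and DNAJC7, a co-chaperone, with r = 0.66 (0.274). For the other members the nearest tested genes were DNAJC21 and CAPSL (IL7R), CXorf65 and MED12 (IL2RG), RAVER2 and LINC01359 (JAK1), and FCHO1 and SNORA68 (JAK3), with r between -0.47 and 0.48. Why the neighbours of the STAT genes had positive r with them was not tested.

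**Figure D4:**
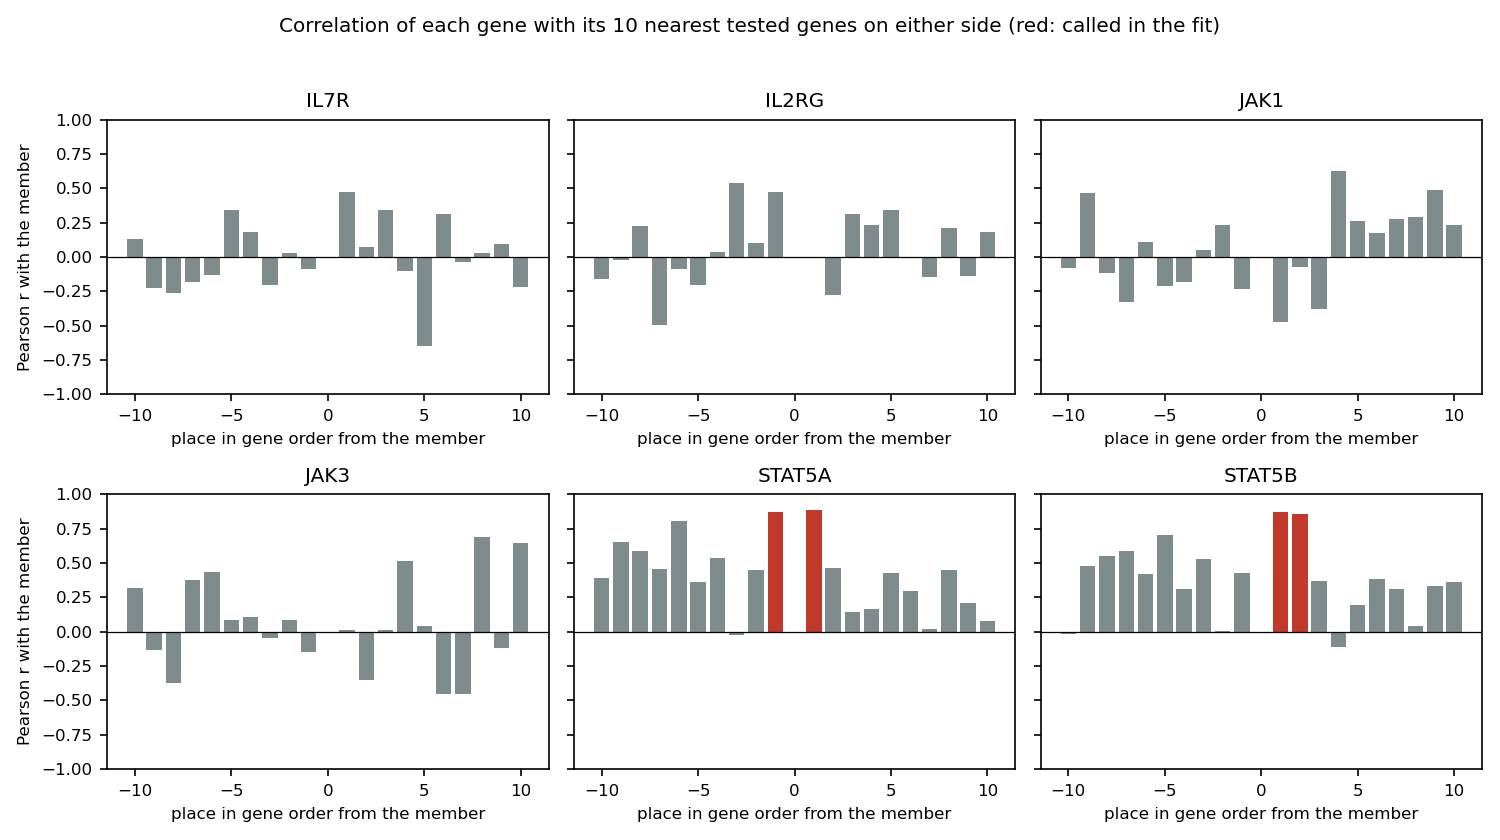
Pearson r over lines (16, or 13 for IL2RG) between each of the 6 genes and its 10 nearest tested genes on either side in chromosome order; the member itself is at 0 and red bars mark genes called in its limma fit. Bars around STAT5A and STAT5B are mostly above 0, with medians of 0.44 and 0.38, while those around the other genes fall on both sides. Most bars of the STAT5A and STAT5B panels are the same genes.

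The pairs of JAK3 with the STAT genes were the next in size but were not called: r was 0.65 with STAT5B (rho 0.69, limma adjusted p = 0.216) and 0.61 with STAT5A (rho 0.59, 0.258). IL7R ran against JAK3 with r = -0.60 (rho -0.66, 0.270) and against STAT5A with r = -0.50 (rho -0.48, 0.385). Without TALL-1 and KOPT-K1, the lines with the highest IL7R, these became -0.52 and -0.31. IL7R and JAK1 had r = -0.29 (rho -0.46), and IL7R and STAT5B -0.27 (rho -0.55). Without TALL-1 and KOPT-K1 these were -0.61 and -0.29. When 1 line was left out, r with IL7R ran from -0.74 to -0.53 for JAK3 and from -0.75 to -0.33 for STAT5A. It ran from -0.40 to -0.23 for JAK1 and from -0.59 to -0.13 for STAT5B. JAK1 with JAK3 had r = 0.43, with STAT5A -0.11 and with STAT5B 0.01. Over 13 lines IL2RG had r from 0.35 to 0.53 with JAK1, JAK3, STAT5A and STAT5B and -0.37 with IL7R. None of these passed the limma test. IL7R had r = 0.56 with the log2 ACTB ratio and JAK3 -0.65, and the part of RNA integrity in their opposite order was not tested.

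No gene was called on the level of IL7R by limma (0.0% of 13309), although 1562 had an unadjusted p below 0.05. Without KOPT-K1, 29 genes were called, without MOLT-4 5, without MOLT-16 1, and without both TALL-1 and KOPT-K1 24. The highest r belonged to ZNF678 (0.83), LCT-AS1 (0.83) and CLEC4A (0.81), a lectin receptor, and the lowest to OCEL1 (-0.86), SMAGP (-0.84) and SEPHS2 (-0.84), an enzyme of selenoprotein synthesis. Each had a limma adjusted p of 0.0715. CLEC4A depended most on the top lines, with r = 0.50 without TALL-1 and KOPT-K1.

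DTX1, a target gene of NOTCH signalling, came nearest to IL7R among the listed genes (r = 0.81, limma adjusted p = 0.0715). It was at 4489.8 in KOPT-K1 and 2367 in TALL-1, the IL7R-high lines, then 1301 in ALL-SIL, 892 in PF-382, 791 in P12-ICHIKAWA and 577 in JURKAT. MOLT-4 was at 349, CCRF-CEM at 297, MOLT-16 at 204 and PEER at 157. The other 6 lines, HSB-2, SUP-T11, DU528, SUP-T13, LOUCY and SKW-3, lay between 18.2 and 32.9. Of these, only SKW-3 had IL7R above 186. With the mean of all probe sets per gene the relation was called (0.0404), and without TALL-1 and KOPT-K1 r was 0.68. The 10 NOTCH pathway genes had a median r of 0.42 with IL7R, beside -0.03 over all genes tested. Of these 10, 0 were called, beside 0.0% of all 13309 genes. NOTCH1 and NOTCH3, receptors, and HES1 and HES4, target repressors, were among the most variable: NOTCH3 ran from 7.3 in HSB-2 to 3955 in TALL-1 and HES4 from 3.1 in SUP-T13 to 3036 in TALL-1, while HES1 was highest in PEER at 3327. NOTCH1 ran from 36.3 in SUP-T11 to 4116 in KOPT-K1.

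Of 9 tested transcription factors known to act on IL7R, 0 were called on its level, beside 0.0% of all 13309 genes. With no gene called, this count could not be otherwise. The median r of these factors was -0.23, beside -0.03 over all genes tested. FOXO1, an activator of IL7R in lymphocytes, ran from 5.9 in MOLT-16 to 1312 in SUP-T11, a line with IL7R at 55.2. FOXP1 (952 to 7160.2) was likewise highest in SUP-T11, and GFI1, a repressor, ran from 131 in DU528 to 936 in TALL-1. 

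No gene was called on IL2RG over the 13 upper lines by limma (0.0%), with 903 at an unadjusted p below 0.05. The highest r belonged to MORC2-AS1 (0.86) and EOGT (0.83), and the lowest included ZBTB7C and PMEPA1 (-0.76 each). APOBEC3B, a cytidine deaminase gene, was also among the highest but itself split the lines, so no r is given.

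JAK1 had the longest list of called genes, 170 (1.28% of those tested), of which 120 rose and 50 fell with it. The highest r belonged to WIPF1 (0.93), FERMT3 (0.90) and SEC22B (0.90), and the lowest to PRR3 (-0.89), MPI (-0.88) and LINC01694 (-0.87). WIPF1 and FERMT3 encode proteins of the actin cytoskeleton and of integrin activation. WIPF1 kept r = 0.93 without MOLT-16 and MOLT-4, while FERMT3 and SEC22B came to 0.66 and 0.59. MOLT-16 was the lowest line for 114 of the 120 genes that rose and the highest for 47 of the 50 that fell. Among all genes tested it was lowest for 11.2% and highest for 11.5%. The count of called genes was 40 without MOLT-16. Without SUP-T13 it was 65, without PF-382 95, without HSB-2 100, and without SKW-3, CCRF-CEM, PEER or DU528 between 106 and 113. It was 64 with the ACTB ratio as a covariate and 1 with the array median as a covariate. After quantile normalization 39 rose and 53 fell, and after centring each array on its median 81 and 95.

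Among the genes of the lists, IL4R, a receptor chain that pairs with the common gamma chain, was the 1 of 74 called on JAK1 (r = 0.76, limma adjusted p = 0.0367), a share of 1.35% beside 1.28% of all genes. IL4R was at 3869.6 in SUP-T11, 2455 in HSB-2, 1129 in DU528, 913 in PEER and 805 in SUP-T13, and between 100.3 and 389.5 in 9 lines. P12-ICHIKAWA at 7.1 and MOLT-16 at 3.6 were far below. The call was lost without MOLT-16 (0.133), SUP-T13 (0.0668), PF-382 (0.0562), DU528 (0.0547), HSB-2 (0.0534) or SKW-3 (0.0517). It was also lost with the ACTB ratio (0.383) or the array median (0.159) as a covariate, without MOLT-16 and MOLT-4 (0.161), with an offset of 64 (0.0599), with ranks (0.0519) and after quantile normalization (0.0501). Not called were TYK2, another kinase of the family (r = 0.75, 0.0630), CD3E, a T-lineage marker (r = 0.72, 0.0667), CBL, a ubiquitin ligase (r = 0.72, 0.0782), and FOXO1 (r = 0.69, 0.0782). Without MOLT-16 and MOLT-4, r was 0.76 for TYK2, -0.10 for CD3E, 0.52 for CBL and 0.80 for FOXO1.

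JAK3 had 2 called genes (0.015%), both rising with it: MYO1G, a myosin of blood cells (r = 0.91, limma adjusted p = 0.00276), and STX11, a syntaxin (r = 0.87, 0.0432). MYO1G ran from 138 in MOLT-16 to 3576 in DU528. Without ALL-SIL, 28 genes were called, without KOPT-K1 10, without TALL-1 8, without SUP-T11 7, without CCRF-CEM or PEER 6, and without MOLT-16 4. Without HSB-2, JURKAT, MOLT-4, PF-382, SKW-3 or SUP-T13 the count was 1, and with the ACTB ratio as a covariate 0. CLIP2 (r = 0.85) missed the threshold at 0.0503. ISOC1 (-0.83), RGL1 (-0.83) and NAT9 (-0.79) ran most against JAK3.

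The 5 lines with the highest JAK3 were also high for SOCS1 and CISH, genes that STAT5 is known to switch on. SOCS1, a feedback inhibitor of JAK kinases, was at 1079 in PEER and 1315 in DU528. SUP-T13 had 2607, HSB-2 4626 and ALL-SIL 2338. KOPT-K1, with JAK3 at 219, had SOCS1 at 2693, and the other 10 lines lay between 45.1 and 301. LOUCY, whose JAK3 of 554 was not told apart from the 602 of DU528, was among them at 80.0. CISH, another feedback inhibitor, was at 1429 in PEER and 1437 in DU528. SUP-T13 had 3735, HSB-2 5856, ALL-SIL 5436 and KOPT-K1 5513. It lay between 16 and 446 elsewhere. PIM1, a survival kinase named after its values were seen, was at 372 in PEER and 2626 in DU528. SUP-T13 had 4540.3, HSB-2 5131, ALL-SIL 3123 and KOPT-K1 1950.0. PIM1 lay between 46.8 and 341 in the other 10 lines, and TALL-1, the line with the lowest JAK3, was at 341, close to PEER.

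These relations were not called over 16 lines. SOCS1 had r = 0.77 with JAK3 (limma adjusted p = 0.110) and CISH 0.67 (0.186); PIM1 split the lines, so no r is given. Without KOPT-K1 the adjusted p of SOCS1 was 0.00936, and over all fits that left out 1 line it ran up to 0.273. KOPT-K1 had high IL7R (3303), whereas the 5 lines with the highest JAK3 had IL7R between 15.9 and 186. TALL-1, with the highest IL7R (3879), had the lowest SOCS1 of all lines at 45.1, and CISH at 84.7. IL9R, which also pairs with the common gamma chain, was at 2991 in SUP-T13, 2477 in DU528, 2212 in HSB-2 and 796 in PEER. ALL-SIL was at 225, and IL9R lay between 64 and 178 in the other 11 lines. IL9R split the lines too. Over the 14 STAT5 target genes the median r with JAK3 was 0.31, beside 0.03 over all genes tested. Of them 0 were called, beside 0.015% of all genes. With STAT5A and STAT5B, the factors themselves, the medians were 0.22 and 0.35. Again 0 were called, beside 0.0376% and 0.12% of all genes. BCL2, the survival gene, came nearest to STAT5B (limma adjusted p = 0.104). Of 16 fits that left out 1 line, 15 did not call it. The limma adjusted p ran from 0.0398 without JURKAT to 0.541, and was 0.554 without both SUP-T11 and JURKAT. BCL2 ran from 13.9 in SUP-T11, lowest also for STAT5B, to 4162 in LOUCY.

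**Figure D5:**
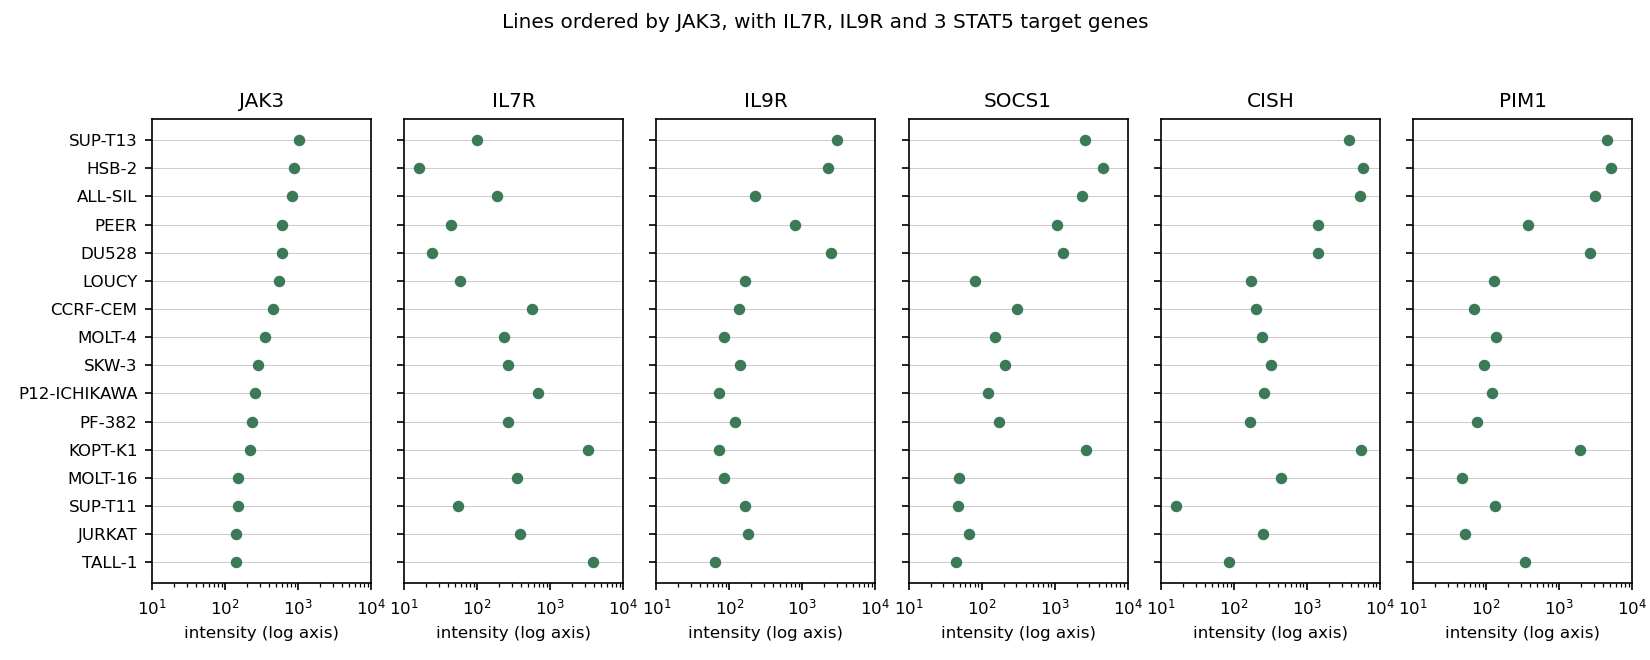
Intensity on log axes of JAK3, IL7R, IL9R, SOCS1, CISH and PIM1 in the 16 lines, ordered by JAK3, with 1 point per line. SOCS1 is at 1079 or more in the 5 lines with the highest JAK3 and in KOPT-K1, and at 301 or less in the others. IL7R is at 3303 in KOPT-K1 and highest in TALL-1 at 3879, where SOCS1 is lowest at 45.1.

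The CISH start window is shown because it carries the element that STAT5 binds. Capitals mark matches to TTCNNNGAA, which reads alike on both strands (RefSeq, GRCh38.p14, chr3:50611725-50612024, minus strand).
CISH: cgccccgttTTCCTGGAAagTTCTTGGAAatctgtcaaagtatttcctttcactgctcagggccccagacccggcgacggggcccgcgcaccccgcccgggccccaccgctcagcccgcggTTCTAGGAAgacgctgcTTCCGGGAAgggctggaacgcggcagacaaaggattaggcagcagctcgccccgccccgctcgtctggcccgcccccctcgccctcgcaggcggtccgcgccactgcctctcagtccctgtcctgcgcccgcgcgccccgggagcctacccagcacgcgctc
The window held 4 matches, starting 241, 230, 129 and 112 bases before the start. Of 35116 windows, 7.66% held a match and 7 held 4 or more. None of the 10 start windows of the 6 genes held this element.

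On STAT5A, limma called 5 genes: STAT3, STAT5B, MLC1 (r = 0.88), a membrane protein gene, PLAUR (0.85), the urokinase receptor gene, and, falling, GPR155 (-0.85). MLC1 kept r = 0.94 without SUP-T11 and TALL-1. CLCN3 (-0.79) and LIN7B (-0.79) were not called. Without DU528 or without PEER 0 genes were called, without LOUCY or without SUP-T11 1, and without TALL-1 2. Without CCRF-CEM or without JURKAT 3 were called, and without MOLT-4 19. On STAT5B, 14 genes rose and 2 fell. After quantile normalization 9 rose and 3 fell. Besides STAT5A and STAT3, the genes that rose included LRRC41 (r = 0.86), BLTP2 (0.90) and AATF (0.87), and those that fell were LIN7B (-0.90) and ISG20 (-0.83), an interferon-induced exonuclease. SFN, a 14-3-3 protein gene, had r = -0.81 and was not called. Of the 16, 4 lay on chromosome 17, which holds 6.07% of the genes tested: STAT5A, STAT3, BLTP2 and AATF. SUP-T11 was the lowest line for all 14 that rose and the highest for both that fell. Among all genes tested it was lowest for 13.2% and highest for 9.8%. Without SUP-T11 or without DU528 0 genes were called, without LOUCY 5, without HSB-2 8, without P12-ICHIKAWA 9, without ALL-SIL, CCRF-CEM or MOLT-16 10, and without JURKAT 77. 

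Other genes of the pathway were tested through 13 lists, 8 of pathway genes and 5 of markers, with 74 genes tested. Apart from IL4R and STAT3 none was called in any of the 6 fits. Over all genes tested, the share called in a fit ran from 0.0% to 1.28%. Of the common gamma chain family, IL2RB ran from 7.5 in SUP-T11 to 3318 in KOPT-K1 and IL21R from 8.4 in P12-ICHIKAWA to 967 in SUP-T11. Among the ligands, no interleukin gene was above the table median in every line. IL4 reached 916 in MOLT-4 with a median of 5.9, IL2 400.4 in SUP-T13 with a median of 11.7, and IL15 456 and TSLP 327 at most. Of other JAK and STAT genes, STAT4 ran from 10.2 in CCRF-CEM to 1795 in SUP-T13, JAK2 from 3.2 in P12-ICHIKAWA to 547 in DU528, and STAT6 only from 644 to 2243. Of the inhibitors, 10 of 11 were above the table median in all lines. SOCS2 ran from 55.7 in TALL-1 to 8378 in ALL-SIL and PTPN6, a phosphatase, from 87.1 in P12-ICHIKAWA to 4545 in DU528. Of the other STAT5 targets, CCND2, a D cyclin, ran from 5.2 in CCRF-CEM to 6607 in DU528 and ID1 from 15.4 in SKW-3 to 4985 in ALL-SIL. The 7 measured genes of the PI3K and RAS arm were above the table median in all lines; PIK3CD was highest in SUP-T11 at 9263 and SOS1 in HSB-2 at 4162, while PIK3R1 stayed between 716 and 3142 and AKT1 between 473 and 1531.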

How the data were processed

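RNA of 16 lines was hybridised to 1 array each. The deposited table gives each probe set's intensity, not on a log scale. Per the labels, RNA was labelled by the standard Affymetrix protocol; how the authors corrected and scaled the intensities is not given in the sources used here. Of 54675 probe sets, 41091 named 1 gene, 1801 several and 11721 were unlisted in the annotation; of those naming 1 gene, 41042 had a symbol in RefSeq. From the deposited intensities log2(intensity + 16) was computed. Each gene was regressed on the level of each of the 6 with limma 3.58.1 (lmFit; eBayes with trend and robust) in R 4.3.3, tested on simulated data. Genes tested had their 3rd highest value above the table median. Lines were taken as split where the widest step between them reached 33.3% of the range and left 3 or more on either side. Where a member split the lines, fits on its level used the larger side. p-values measure the spread between these arrays.

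The members and the lists were chosen with earlier results of these data known. The lists covered common gamma chain receptors, ligands, JAK and STAT genes, inhibitors, STAT5 targets, factors acting on IL7R, NOTCH, the PI3K and RAS arm, and T, B, myeloid, natural killer and stromal markers; of 100 genes 87 were measured and 13 are not analysed here. Named are list genes that were called, otherwise the 4 with the widest range per list; for each member the 3 genes with the highest and the lowest r among those with an SD above 0.5, with Y-linked genes left out; and the nearest tested genes. Other names were chosen after their values were seen. Alternatives covered the offset, scaling, choice of probe set, low-value filter, covariates, ranks and leaving out lines.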

Additional observations from a re-analysis of the deposited data

How the results depend on the processing

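Each level order and fit was repeated with offsets of 1 and 64, quantile normalization, arrays centred on their median, the mean of all probe sets, the probe set with the highest SD, no _x_at or _s_at probe sets, no filter on low values, the ACTB ratio or the array median as a covariate, ranks of the member, and without each line or the 2 lines farthest from the member's median. With the mean of all probe sets the median log2 level moved to 8.26 for JAK1, 6.42 for JAK3 and 8.78 for STAT5B and the range to 2.78 log2 units for JAK1 and 0.89 for JAK3; with the probe set of highest SD the STAT5B median was 8.32. The other 120 level values stayed within 1 SD.

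Counts of genes called moved by over 1.5 times as follows. For IL7R they were 12 with the mean of all probe sets and 24 without the 2 farthest lines, against 0. For JAK1 they were 92 after quantile normalization, 107 without _x_at and _s_at probe sets, 44 without the 2 farthest lines, 64 with the ACTB ratio and 1 with the array median, against 170. For JAK3 they were 1 after quantile normalization, after centring, with the mean of all probe sets and with ranks, and 0 without the 2 farthest lines and with the ACTB ratio, against 2. For STAT5A they were 3 with an offset of 64 and with the array median, 2 with the ACTB ratio, and 1 without the 2 farthest lines and with ranks, against 5. For STAT5B they were 25 with an offset of 1, 8 with the mean of all probe sets, 2 with the probe set of highest SD, 26 without _x_at and _s_at probe sets, 0 without the 2 farthest lines and 3 with ranks, against 16. Leaving out 1 line gave between 0 and 29 for IL7R, 40 and 189 for JAK1, 1 and 28 for JAK3, 0 and 19 for STAT5A, and 0 and 77 for STAT5B, and 0 throughout for IL2RG. Leaving out lines or testing fewer genes changes these counts by construction; otherwise the cause was not tested.

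Some slopes between members that were not called changed sign (log2 units per log2 unit). With the ACTB ratio they were 0.096 for JAK1 on IL7R, -0.035 for JAK1 on IL2RG, -0.084 for JAK3 on JAK1 and -0.29 for STAT5B on JAK1. STAT5B on JAK1 was -0.056 after quantile normalization, -0.015 after centring and -0.075 with the probe set of highest SD, and ran from -0.056 to 0.12 when 1 line was left out. STAT5A on JAK1 was 0.46 without the 2 farthest lines and ran from -0.39 to 0.023 when 1 line was left out. IL7R on IL2RG was 0.44 over all 16 lines, an alternative added after seeing the data. STAT5B on STAT5A was not called with the ACTB ratio (limma adjusted p = 0.0527) or with ranks (0.0598), and FOXO1 and TYK2 on JAK1 were called with the mean of all probe sets (0.0321 each) and with ranks (0.0205 and 0.0403). No paired analysis was possible because all lines form 1 group.

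With 1 array per line, culture-to-culture spread is unknown, and levels near the table median have no detection call here. The fits over 16 lines rest on few lines at each end. The ACTB ratio moved with JAK1 and JAK3, and the array median with JAK1.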
